A study of Mus musculus with 12 samples.

Results

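The troponin and tropomyosin genes encode the calcium switch of the thin filament. The 10 genes described here, Tnni1, Tnni2, Tnni3, Tnnt1, Tnnt2, Tnnt3, Tnnc1, Tpm1, Tpm2 and Tpm3, were chosen by symbol from the 24062 genes of the count table, and all 10 passed the filter on low counts in every comparison. RNA-Seq was performed on whole hearts of 12 mice, 1 library per heart, in 4 groups of 3. Adult hearts came from 2-month-old WT mice and from KI/KI mice, which carry the c.T38>G substitution in both copies of Lemd2, a gene for a nuclear envelope protein. Neonatal hearts were taken at postnatal day 1 (P1) from Lemd2-floxed mice and from cKO mice, in which Cre under the α-myosin heavy chain (Myh6) promoter deletes floxed Lemd2 in cardiomyocytes. Both P1 groups thus carry floxed alleles, and both adult groups do not. The Myh6 promoter acts in cardiomyocytes, and other cells of a cKO heart keep the gene. Whether the floxed mice carried Cre, and from how many litters the mice came, is not given in the sources used here, so p-values measure the spread between these mice.

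Tropomyosin lies along the actin filament and covers the sites to which myosin binds. Troponin T ties the troponin complex to tropomyosin, troponin I holds the filament in the blocked state, and troponin C releases it when it binds calcium. Each subunit has isoforms from separate genes. The heart is known to start with the slow skeletal troponin I gene Tnni1 and to replace it after birth by the cardiac gene Tnni3. The share of the β-tropomyosin gene Tpm2 beside the α-tropomyosin gene Tpm1 is known to decline.

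The genes lie in the genome as pairs of a troponin I and a troponin T gene. In GRCm38, Tnni1 (chr1:135779434-135810989, plus strand) ends 25.4 kb before the cardiac troponin T gene Tnnt2. Tnni3 (chr7:4518305-4524229, minus strand) lies 1.9 kb from the slow skeletal Tnnt1, and the fast skeletal pair Tnni2 (chr7:142441808-142444410) and Tnnt3 is 54.4 kb apart. Tpm2 is at chr4:43514711-43523765, Tpm3 at chr3:90072649-90100902 and Tpm1 at chr9:67022590-67049406. No exon base of these genes was shared with another annotated gene on either strand. The tropomyosin genes resemble each other in sequence, and how reads that match several of them were counted is not given in the sources used here.

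The sequences before the starts of Tnni1 and Tnni3 are shown because the ratio of these genes is what differed most between the ages. Both come from RefSeq (GRCm38.p6), in which 8 of the 10 genes had an entry. The stretch of Tnni1 is chr1:135799171-135799401 on the plus strand and ends before the first exon base annotated there. That of Tnni3 is chr7:4522529-4522778 on the minus strand. Both stretches lie inside the annotated spans of these genes given above, before a RefSeq start within the span. Capitals mark an E box, CAGCTG.

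Tnni1: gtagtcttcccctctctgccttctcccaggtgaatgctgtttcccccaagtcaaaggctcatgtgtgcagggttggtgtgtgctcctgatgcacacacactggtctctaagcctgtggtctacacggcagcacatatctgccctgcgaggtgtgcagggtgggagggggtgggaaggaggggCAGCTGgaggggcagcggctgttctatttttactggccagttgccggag

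Tnni3: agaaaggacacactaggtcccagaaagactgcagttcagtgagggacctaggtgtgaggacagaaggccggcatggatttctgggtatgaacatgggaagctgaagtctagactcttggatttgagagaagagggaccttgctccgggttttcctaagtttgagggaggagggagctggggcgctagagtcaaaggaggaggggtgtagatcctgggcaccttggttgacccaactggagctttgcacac

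The windows of 250 bases before each start were searched on both strands for the GATA motif GATAAG, the MCAT element CATTCC, the TATA motif TATAAA, the E box above, the CArG box and the MEF2 site. RefSeq gives Tnni1 2 starts, and the same E box lies 68 bases before the first and 158 bases before the second. None of the 6 motifs was found in the Tnni3 window. An E box of these letters was present in 13% of all 32851 mouse windows of this length, an MCAT element in 12.6% and TATAAA in 12.4%. Tnnt2 held an MCAT element at 27 bases and E boxes at 157 and 223 bases before the first of its 2 starts. No motif was found before the second, and Tnnt1 held TATAAA at 30 bases. These are matches of letters and not measured binding sites.

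Library totals ranged from 37063669 to 44789753 counts, and the 10 genes took between 1.44% and 2.13% of a library. Levels are given as CPM, counts scaled to a common library size by TMM over the 12 hearts. For comparison between genes they are divided by the exon length in kb. Lemd2 itself was at 32.0, 34.8 and 32.9 CPM in WT, 25.6, 25.2 and 24.8 in KI/KI, 24.3, 25.0 and 25.4 in floxed and 6.59, 13.1 and 11.3 in cKO hearts. The cardiomyocyte markers (10 of 10) were detected in every group, and Sftpc, a lung marker, was at or below 3 counts in every adult heart. The sum of 6 lung markers was nevertheless 101 CPM in WT replicate 3, 35.5 in KI/KI replicate 4, 28.5 and 44.9 in floxed replicates 1 and 2 and 19.7 in cKO replicate 4, against at most 3.50 CPM in the other hearts. A single gene, Scgb1a1, made most of each sum in the named hearts, at 95.3, 34.1, 23.2, 34.4 and 12.7 CPM in that order. Xist was at 612 CPM in cKO replicate 4 and between 0.170 and 2.02 CPM in the other 11 hearts.

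**Figure D1:**
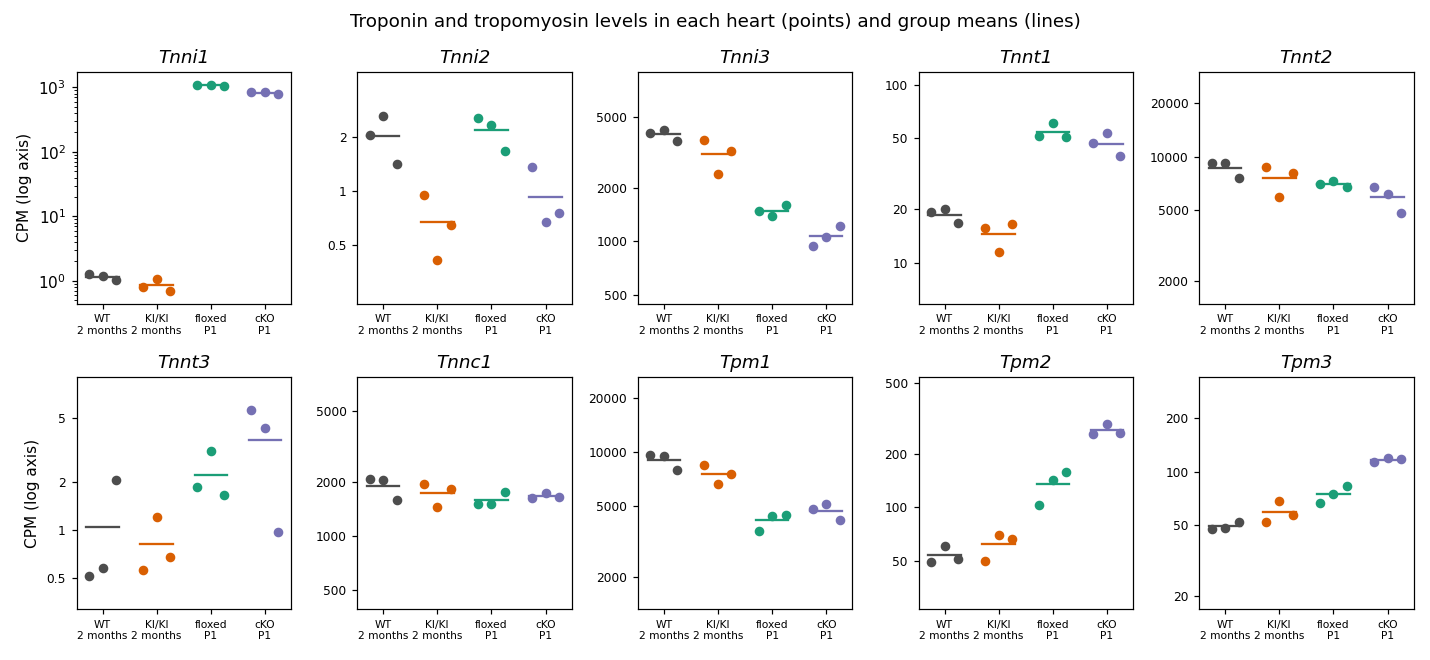
CPM of each of the 10 genes (log axis) in each heart (points, replicates in order) with the group mean (line), for WT and KI/KI hearts at 2 months and floxed and cKO hearts at P1. Tnni1 sits near 1 CPM in all 6 adult hearts and between 790 and 1089 CPM in the P1 hearts, and Tpm2 and Tpm3 are highest in the 3 cKO hearts.

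Which isoforms belong to the neonatal and which to the adult heart was asked first, by comparing the floxed hearts at P1 with the adult WT hearts. Age, the floxed allele and any difference in handling cannot be told apart in this comparison. In the WT hearts Tnni1 was nearly silent, at 1.29, 1.19 and 1.01 CPM, from 40, 39 and 37 counts. In the floxed hearts it was at 1089, 1078 and 1069 CPM. The groups lay far apart, and each floxed heart was within a few percent of the others. The difference was 936-fold, a log2 fold change of 9.87 ± 0.11 SE (edgeR adjusted p = 6.9e-09), the second highest among 15183 genes tested. Here and below, SE is the standard error of a log2 fold change, and p comes from edgeR's quasi-likelihood test unless another test is named.

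Tnni3, the adult cardiac troponin I, went the other way. It was at 4070, 4206 and 3652 CPM in WT and at 1473, 1389 and 1603 CPM in floxed hearts, with no overlap. Its log2 fold change was -1.41 ± 0.10 SE (edgeR adjusted p = 8.7e-06). Per kb of exon, the sum of the troponin I transcripts was 4362 ± 317 CPM per kb in WT and 2482 ± 113 in floxed hearts (SD, n = 3). Tnni1 made up 34.6%, 35.7% and 32.3% of that sum in the 3 floxed hearts and between 0.0197% and 0.0226% in the WT hearts. Put as a ratio of counts per kb, there were 1.89, 1.80 and 2.09 Tnni3 transcripts per Tnni1 transcript in the floxed hearts. In the WT hearts there were 4417, 4930 and 5064. The mean log2 ratio of Tnni1 to Tnni3 was -12.23 ± 0.10 in WT and -0.94 ± 0.11 in floxed hearts (SD, n = 3), a difference of 11.28 ± 0.09 SE. An exact two-sided permutation test of 3 against 3 hearts gave p = 0.1, the smallest this design allows, and 0.2 after adjustment over the 18 ratio comparisons made.

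The other subunits differed less between the ages. The slow skeletal troponin T gene Tnnt1 was at 51.5, 60.6 and 51.2 CPM in floxed and 19.4, 20.0 and 16.7 CPM in WT hearts, a log2 fold change of 1.55 ± 0.10 SE (edgeR adjusted p = 7.2e-06). Even so, Tnnt2 supplied 99.1% of the troponin T transcripts per kb in floxed and 99.7% in WT hearts. Tpm2 was higher at P1, with 135 ± 28.5 CPM against 53.9 ± 6.03 (SD, n = 3) and a log2 fold change of 1.33 ± 0.16 SE (edgeR adjusted p = 2.2e-04). Tpm3, the slow muscle and cytoskeletal tropomyosin, had a log2 fold change of 0.60 ± 0.10 SE (edgeR adjusted p = 7.5e-04). Tpm1, the main cardiac tropomyosin, was at 3617, 4350 and 4429 CPM in floxed and 9578, 9542 and 7977 CPM in WT hearts, with a log2 fold change of -1.12 ± 0.12 SE (edgeR adjusted p = 9.0e-05). Tpm1 thus moved in the direction of Tnni3, and Tpm2, Tpm3 and Tnnt1 in that of Tnni1.

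In all, 7 of the 10 genes were called at an adjusted p under 0.05 between the control groups, where 65.2% of all genes tested were called. Of these, 4 were higher in floxed hearts, beside 33.4% of all genes, and 3 were lower, beside 31.8%. The same 7 did not overlap between the groups, as 70.8% of all genes did not. These shares were near the background. The median log2 fold change of the 10 genes was 0.36, and that of all genes 0.04. Tnnt2 was called with a log2 fold change of -0.30 ± 0.11 SE (edgeR adjusted p = 0.0356), but in only 1 of the 6 fits that left out a heart. Tnnc1, the troponin C of heart and slow muscle, missed the threshold at -0.25 ± 0.12 SE (adjusted p = 0.0981). With library totals in place of TMM the median of all genes shifted by 0.40, and both values turned positive, 0.11 for Tnnt2 and 0.15 for Tnnc1. The fast skeletal genes Tnni2 and Tnnt3 did not pass the test, with log2 fold changes of 0.12 ± 0.27 SE and 1.03 ± 0.50 SE.

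The order of the levels per kb of exon shows which transcripts the 2 ages share. In WT hearts Tnnt2 was first at 6867 ± 750 CPM per kb, followed by Tnni3 at 4359 ± 317, Tnnc1 at 2656 ± 383 and Tpm1 at 1890 ± 191 (SD, n = 3). The remaining 6 genes were all under 30 CPM per kb, and among them Tnni1 at 0.912 and Tnnt3 at 0.896 CPM per kb did not differ beyond their spread. In floxed hearts the order was Tnnt2 at 5550 ± 229, Tnnc1 at 2218 ± 192, Tnni3 at 1632 ± 118, Tpm1 at 864 ± 93.7 and Tnni1 at 848 ± 7.90 CPM per kb. Tpm1 and Tnni1 did not differ there beyond their spread, nor did Tpm2 at 56.7 and Tnnt1 at 50.5 ± 4.94 CPM per kb.

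**Figure D2:**
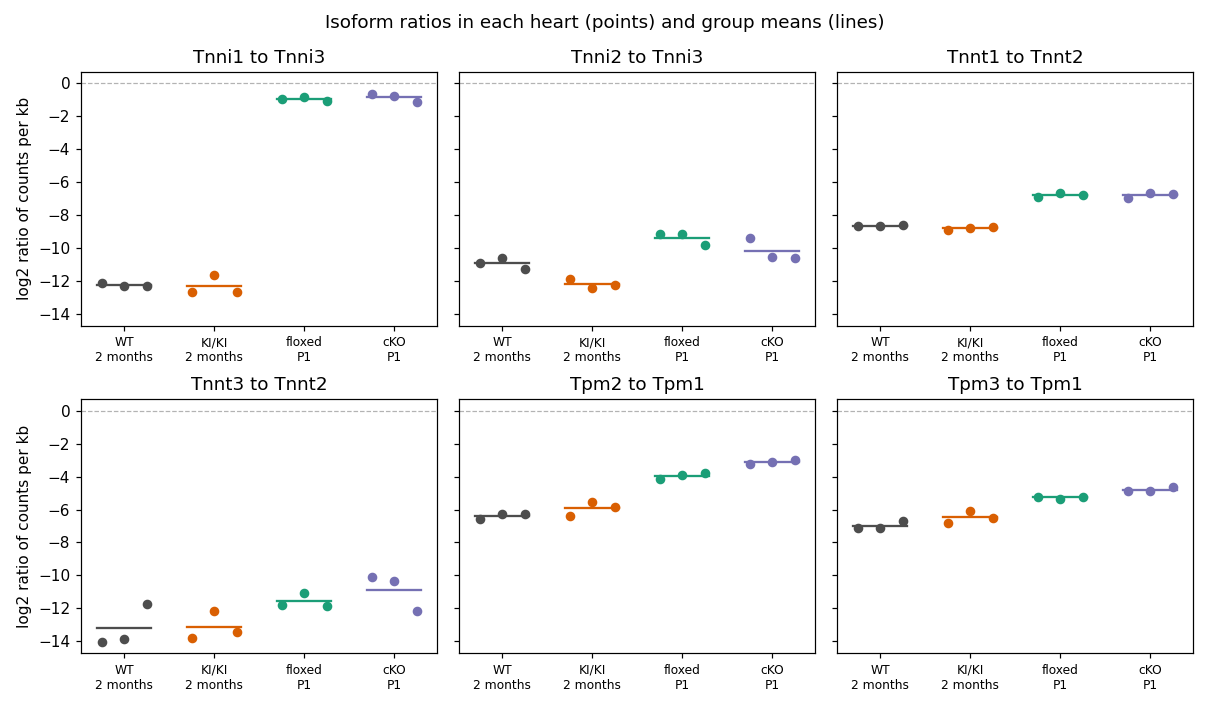
Log2 ratio of counts per kb for 6 pairs of isoforms in each heart (points) with the group mean (line), by group. The dashed line marks equal levels. The Tnni1 to Tnni3 ratio lies between -12.65 and -11.62 in adult hearts and between -1.10 and -0.66 at P1, with KI/KI hearts beside WT and cKO beside floxed hearts. The Tpm2 to Tpm1 and Tpm3 to Tpm1 ratios are above the floxed hearts in all 3 cKO hearts.

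The question in adult hearts was whether the KI/KI genotype changed the isoforms. The neonatal gene Tnni1 was at 0.804, 1.06 and 0.703 CPM in KI/KI hearts, from 27, 44 and 25 counts, and overlapped the WT hearts. Its log2 fold change was -0.41 ± 0.24 SE (edgeR adjusted p = 0.413). Tnni3 was at 3710, 2393 and 3205 CPM, with a log2 fold change of -0.35 ± 0.17 SE (adjusted p = 0.347). There were 6438, 3138 and 6367 Tnni3 transcripts per Tnni1 transcript in the 3 KI/KI hearts, a range that took in all WT hearts. The mean log2 ratio of Tnni1 to Tnni3 was -12.30 ± 0.59 (SD, n = 3), and it differed from WT by -0.07 ± 0.35 SE (exact permutation p = 1). Without KI/KI replicate 4 or 6 the difference was 0.10 or 0.09, and without replicate 5 it was -0.42. Tnni1 made up 0.0210% ± 0.00941 of the troponin I transcripts in KI/KI and 0.0209% ± 0.00153 in WT hearts (SD, n = 3). At these counts a rise of the size seen between the ages was not present in any KI/KI heart, while a change of a small fraction of Tnni1 was within the spread.

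Among the other thin filament genes, Acta1, the skeletal α-actin, was at 446, 1751 and 1334 CPM in KI/KI and 216, 213 and 241 CPM in WT hearts, with no overlap. Unlike Tnni1, it was lower at P1, at 34.3, 39.5 and 59.2 CPM in floxed and 103, 145 and 208 CPM in cKO hearts. All cKO hearts lay above all floxed hearts, so Acta1 was higher than in the controls in both mutant groups. Its log2 fold change in KI/KI hearts was 2.40 ± 0.46 SE, with an adjusted p of 0.193 in edgeR and 1.5e-04 in DESeq2. Acta1 was the gene with the smallest p of the 21 tested on the list of other thin filament genes, of which edgeR called 0 and DESeq2 called 1. The median of the list in KI/KI hearts was a log2 fold change of -0.04.

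None of the 10 genes was called in KI/KI hearts by edgeR, nor was any of 14592 genes tested (0%). At an unadjusted p under 0.05 there were 3 of the 10, Tnni2, Tnnt1 and Tpm3, beside 16.2% of all genes. DESeq2 called 518 genes (3.54%), and Tnni2 was the 1 called among the 10. Limma-voom called 0 genes, with 2 of the 10 at an unadjusted p under 0.05 (16% of all genes). The groups did not overlap for Tnni2 and Tnnt1, 2 of the 10, while 21.8% of all genes tested had groups that did not overlap. Tnni2, the fast skeletal troponin I, was at 2.06, 2.63 and 1.41 CPM in WT and 0.953, 0.411 and 0.646 CPM in KI/KI hearts. These came from between 17 and 86 counts. The log2 fold change was -1.61 ± 0.36 SE, with an adjusted p of 0.2 in edgeR and 0.0111 in DESeq2, and between 0.0111 and 0.518 over all alternatives. Tnnt1 was at 15.8, 11.5 and 16.5 CPM in KI/KI hearts, with a log2 fold change of -0.35 ± 0.14 SE (edgeR adjusted p = 0.306). Tnnt2, Tnnc1 and Tpm1 had log2 fold changes of -0.19, -0.13 and -0.26, and Tpm2 and Tpm3 of 0.21 and 0.26, with adjusted p between 0.308 and 0.683 in edgeR. The median over the 10 genes was -0.30, and 8 of them were lower, while the median of all genes was 0.00.

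KI/KI replicate 5 had the lowest Tnni3, Tnnt2, Tnnc1 and Tpm1 of the 6 adult hearts and the highest Tpm2 and Tpm3. It also had the lowest sum of 10 cardiomyocyte markers, 58052 CPM against 69379 to 85089 in the other 5, and the highest sum of 8 fibroblast markers, 3326 CPM against 1686 to 2274. Its 8 atrial markers summed to 10196 CPM, against 4118 to 6859 in the other adult hearts, of which Nppa, a natriuretic peptide gene, made 7564 CPM. The other 7 atrial markers summed to 2632 CPM there and 1898 to 2195 in the other 5. Without this heart the log2 fold changes were -0.20 for Tnni3, -0.04 for Tnnt2, -0.01 for Tnnc1, -0.17 for Tpm1, 0.12 for Tpm2 and 0.14 for Tpm3. The embryonic and slow skeletal markers summed to 17.7 to 20.2 CPM in KI/KI and 31.3 to 52.7 CPM in WT hearts. Casq1, a calcium store protein of skeletal muscle, made at most 17.7 CPM of this in KI/KI and at least 29.9 CPM in WT hearts. The sum of the other 11 went the opposite way to Casq1 and Tnni2, at 1.79 to 3.70 CPM in KI/KI and 0.763 to 1.36 CPM in WT hearts. Myh8 made 0.924, 2.76 and 1.24 CPM of it in KI/KI hearts, while Mybph was lower there. Of these 11, 6 were at or under 3 counts in every adult heart. Of 8 tested fast skeletal markers 3 were higher and 5 lower in KI/KI hearts, and edgeR called 0. Atp2a1 was lower, at 2.71 to 4.41 CPM in KI/KI and 7.37 to 14.8 CPM in WT hearts. Ryr1 was higher, at 1.96 to 3.07 and 0.336 to 1.01 CPM. The part of cell types in the results was not tested. In whole-heart RNA, fewer cells of a type and less RNA per cell cannot be told apart. For Tnnt3, the fast skeletal troponin T, WT replicate 3 stood apart at 2.04 CPM, against 0.514 and 0.580 in the other WT hearts. Its log2 fold change in KI/KI hearts was -0.37 ± 0.61 SE, and 0.62 without that heart. Myh4, a fast skeletal myosin, was at 3.54 CPM in WT replicate 3 and at most 0.141 CPM in every other heart.

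**Figure D3:**
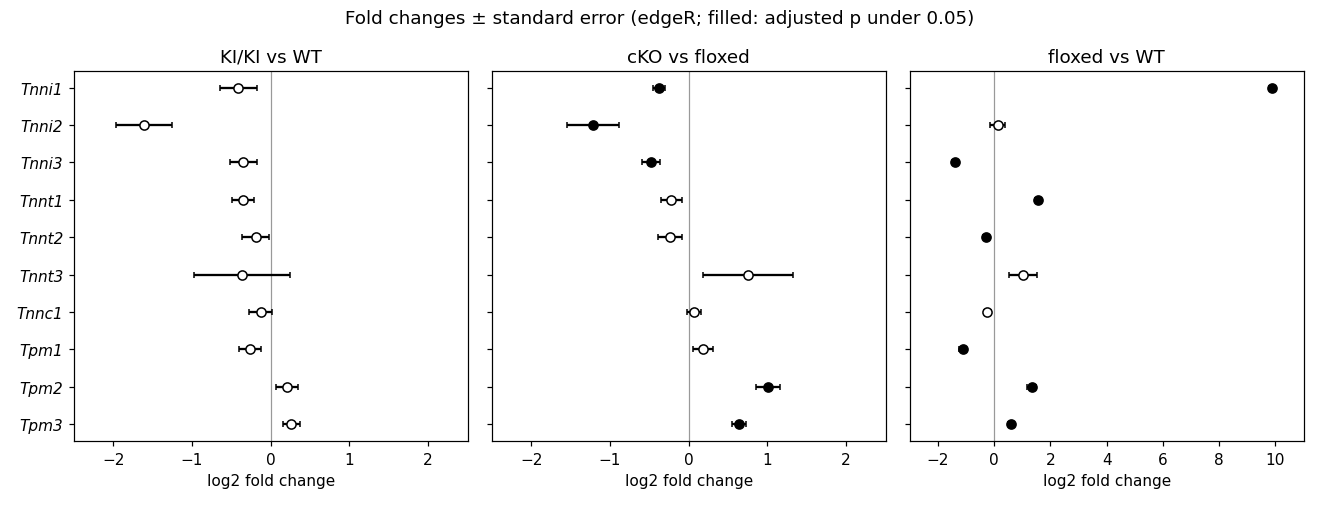
Log2 fold change (points) with its standard error (bars) of the 10 genes in KI/KI against WT, cKO against floxed and floxed against WT hearts, from edgeR. Filled points have an adjusted p under 0.05, which no gene has in KI/KI hearts and 5 genes have in cKO hearts. The third axis is wider, since Tnni1 lies at 9.87.

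The same question was asked of the cKO hearts at P1, when both troponin I genes are on. Tnni1 was at 1089, 1078 and 1069 CPM in floxed and 837, 860 and 790 CPM in cKO hearts. All 3 cKO hearts lay below all 3 floxed hearts. The log2 fold change was -0.38 ± 0.08 SE (edgeR adjusted p = 0.0244). Tnni3 was at 1473, 1389 and 1603 CPM in floxed and 947, 1052 and 1217 CPM in cKO hearts, again with no overlap, and its log2 fold change was -0.48 ± 0.11 SE (edgeR adjusted p = 0.0277).

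Both troponin I genes fell, and the ratio between them was not detectably different. There were 1.58, 1.71 and 2.15 Tnni3 transcripts per Tnni1 transcript in cKO hearts, a range around that of the floxed hearts. The log2 ratio of Tnni1 to Tnni3 was -0.85 ± 0.23 in cKO and -0.94 ± 0.11 in floxed hearts (SD, n = 3), a difference of 0.10 ± 0.15 SE (exact permutation p = 0.5, adjusted p = 0.6 over 18). Tnni1 made up 38.7%, 36.9% and 31.7% of the troponin I transcripts per kb in the cKO hearts. The sum of these transcripts was 2482 ± 113 CPM per kb in floxed and 1828 ± 129 in cKO hearts (SD, n = 3), with the highest cKO heart at 1955 and the lowest floxed heart at 2373. This order of the sums is a description and was not tested on its own.

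The third troponin I gene, Tnni2, is far less abundant. It was at 2.55, 2.33 and 1.68 CPM in floxed and 1.36, 0.667 and 0.753 CPM in cKO hearts, from between 31 and 113 counts, with no overlap. Its log2 fold change was -1.22 ± 0.33 SE (edgeR adjusted p = 0.0485). The call was lost with no filter on low counts (adjusted p = 0.0504) and with edgeR's legacy dispersions (adjusted p = 0.0571), and the adjusted p ranged from 0.0120 to 0.167 over all alternatives. Tnni2 was lower than its controls in the 3 hearts of both mutant groups, and the difference between the 2 effects was 0.40 ± 0.52 SE (edgeR adjusted p = 0.718). Its neighbour Tnnt3 was at 5.63, 4.33 and 0.972 CPM in cKO and 1.85, 3.13 and 1.66 CPM in floxed hearts, with a log2 fold change of 0.75 ± 0.57 SE (edgeR adjusted p = 0.382). Of 9 tested fast skeletal markers 1 was called higher and 0 lower in cKO hearts, near the 9.32% and 7.57% of all genes. The sum of the list was 81.5 to 120 CPM in cKO and 35.8 to 54.8 CPM in floxed hearts, and Myl1 and Mybpc2 made most of it. Myl1 was at 106, 89.0 and 32.2 CPM in cKO and 27.2, 43.4 and 40.8 CPM in floxed hearts. Mybpc2 was at 7.13, 15.3 and 44.4 CPM in cKO and 4.26, 3.00 and 9.08 CPM in floxed hearts. Of the 9 tested, 7 were higher and 2 lower. Atp2a1 was lower, at 0.998 to 1.22 CPM in cKO and 1.54 to 1.72 CPM in floxed hearts. Tnnc2, the fast skeletal troponin C, was under 0.5 CPM in all 12 hearts.

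The remaining troponin genes were not called. Tnnt2 was at 6730, 6175 and 4820 CPM in cKO hearts against 7045, 7279 and 6703 CPM in floxed hearts, and cKO replicate 4 lay within the floxed range. Its log2 fold change was -0.24 ± 0.15 SE (edgeR adjusted p = 0.290). Tnnt1 had a log2 fold change of -0.22 ± 0.13 SE (adjusted p = 0.279), and Tnnt2 kept 99.0% of the troponin T transcripts per kb. Tnnc1 was at 1629, 1751 and 1653 CPM in cKO and 1520, 1518 and 1760 CPM in floxed hearts, a log2 fold change of 0.07 ± 0.09 SE (edgeR adjusted p = 0.625).

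The tropomyosins showed the clearest difference in cKO hearts. Tpm2 was at 103, 142 and 159 CPM in floxed and 258, 293 and 262 CPM in cKO hearts. The lowest cKO heart was well above the highest floxed heart. Tpm2 rose 2.01-fold, a log2 fold change of 1.01 ± 0.15 SE (edgeR adjusted p = 0.0101). Tpm3 was at 67.2, 74.6 and 83.5 CPM in floxed and 113, 120 and 118 CPM in cKO hearts, and rose by 0.64 ± 0.09 SE on the log2 scale (edgeR adjusted p = 0.00828). Tpm1 was at 3617, 4350 and 4429 CPM in floxed and 4803, 5110 and 4151 CPM in cKO hearts, which overlapped, with a log2 fold change of 0.18 ± 0.13 SE (edgeR adjusted p = 0.346). Tpm4, a mostly non-muscle tropomyosin on the list of other thin filament genes, went with Tpm2 and Tpm3. It was at 216, 229 and 303 CPM in floxed and 447, 484 and 475 CPM in cKO hearts (log2 fold change 0.91 ± 0.13 SE; edgeR adjusted p = 0.00843).

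These levels give the makeup of the tropomyosin transcripts in each heart. Among Tpm1, Tpm2 and Tpm3 per kb of exon, Tpm2 made up 5.30%, 6.03% and 6.56% in floxed hearts, while the cKO hearts had between 9.43% and 10.8%. Tpm1 made up 91.6% ± 0.603 and 86.8% ± 0.971 (SD, n = 3). The log2 ratio of Tpm2 to Tpm1 was higher in cKO hearts by 0.84 ± 0.12 SE and that of Tpm3 to Tpm1 by 0.46 ± 0.10 SE. Neither overlapped between the groups, and both exact permutation tests gave the smallest possible p, 0.1 (0.2 after adjustment over 18). With Tpm4 counted as well, Tpm1 supplied 81.5% ± 1.53 of the transcripts in floxed and 72.5% ± 2.04 in cKO hearts, and Tpm4 at most 12.3% in the floxed and at least 15.5% in the cKO hearts. Tpm1 has alternative ends, so its share depends on the length used. With the longest coding transcript of each gene the Tpm1 share was 87.1% ± 1.10 and 80.2% ± 1.64 (SD, n = 3).

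**Figure D4:**
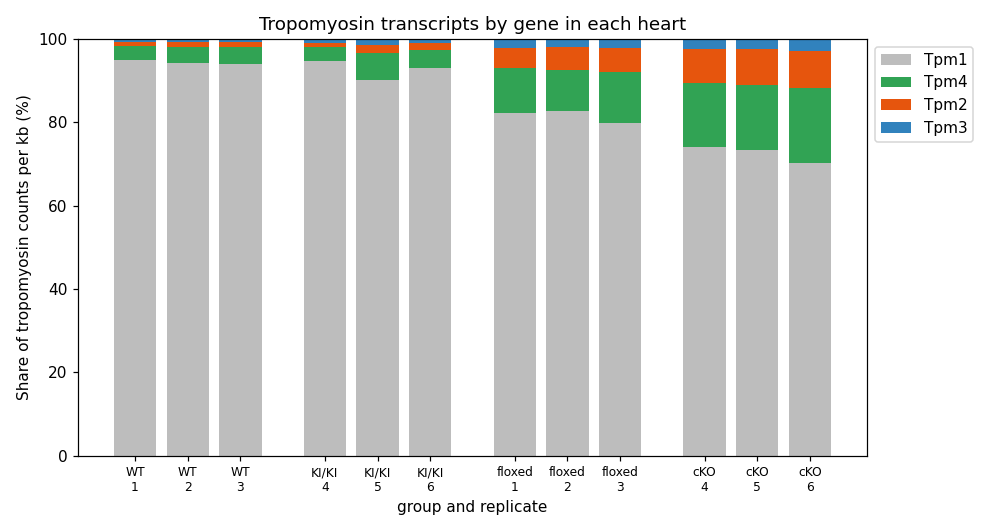
Share of each tropomyosin gene (%) in the tropomyosin counts per kb of exon, stacked for each of the 12 hearts. Tpm1 lies between 79.8% and 82.7% in the floxed and between 70.2% and 74.0% in the cKO hearts, and is above 90% in WT hearts.

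In all, 5 of the 10 genes were called in cKO hearts, beside 16.9% of the 15317 genes tested. Tpm2 and Tpm3 were higher, as 9.32% of all genes were, and Tnni1, Tnni2 and Tnni3 were lower, as 7.57% were. Tnni2 and Tpm2 also passed a fold change above 2, as 4.64% of all genes did. The same 5 genes did not overlap between the groups, which held for 39% of all genes. DESeq2 also called 5 of the 10 (24.5% of all genes), as did limma-voom (15.8%). The median log2 fold change of the 10 was -0.08 and that of all genes 0.00. The calls depended on single hearts. Tpm2 was called with each of the 6 hearts left out, and Tpm3 in 5 of 6, with an adjusted p of 0.0518 without floxed replicate 1. Tnni1 was called in 2 of 6, and Tnni3 and Tnni2 in 1 of 6 each. The number called was 1 without floxed replicate 1 and 2 without floxed replicate 2, floxed replicate 3 or cKO replicate 5. It was 4 without cKO replicate 4, the heart with high Xist. Lung markers were present in that heart, as they were in floxed replicates 1 and 2. The number was 5 without cKO replicate 6, where Tnnt3 was called and Tnni2 was not. Over these fits the log2 fold change stayed between -0.40 and -0.34 for Tnni1, -0.57 and -0.41 for Tnni3 and 0.84 and 1.13 for Tpm2.

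Some sums of cell type markers differed between the cKO and floxed hearts, and a few genes made much of several sums. The sum of 10 cardiomyocyte markers was 25531 to 32897 CPM in cKO and 35266 to 42776 CPM in floxed hearts, with 7 of the 10 lower and 4 called lower. Myh6 made 12249 to 15823 CPM of it in cKO and 17187 to 21317 CPM in floxed hearts. That sum moved in the direction of Tnni1 and Tnni3. Of 8 fibroblast markers 5 were higher and 3 called higher, and their sum was 5716 to 6277 CPM in cKO and 4023 to 4409 CPM in floxed hearts. Col1a1, Col1a2 and Postn made most of it, while Dcn, Lum, Dpt and Pdgfra overlapped between the groups. Of 8 smooth muscle markers 2 were called higher and 1 lower, with sums of 1623 to 2930 and 1287 to 1703 CPM, which overlapped. Acta2 made most of these sums. Myh11 was lower, at 39.9 to 47.7 CPM in cKO and 52.9 to 85.8 CPM in floxed hearts. The 6 endothelial markers summed to 1113 to 1576 CPM in cKO and 1092 to 1185 CPM in floxed hearts, which also overlapped. Tpm2 and Tpm4 are known in smooth muscle and fibroblasts as well as in heart muscle. The embryonic and slow skeletal markers were all higher among the 5 of 12 tested, with 1 called. The whole list summed to 135 to 307 CPM in cKO and 58.8 to 87.3 CPM in floxed hearts. Casq1 made most of this, at 121 to 290 and 50.9 to 73.4 CPM, so the sum mainly followed 1 gene. The other 11 summed to 13.9 to 27.0 and 7.88 to 14.9 CPM, which overlapped. Myod1 and Pax7 were at 0 counts in every P1 heart. The atrial marker sum spanned 2671 to 9726 CPM in cKO and 1788 to 3016 CPM in floxed hearts, and the groups overlapped. Nppa made 2209 to 6799 and 858 to 1496 CPM of it. The other 7 summed to 2928, 1874 and 462 CPM in cKO replicates 4, 5 and 6 and to 930 to 1521 CPM in floxed hearts. Replicate 6, the lowest, also had the lowest Tnni1, Tnnt1, Tnnt2, Tnnt3 and Tpm1 and the highest Tnni3 of the cKO hearts. The part of any of these cell types, and of the number of cardiomyocytes, was not tested.

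**Figure D5:**
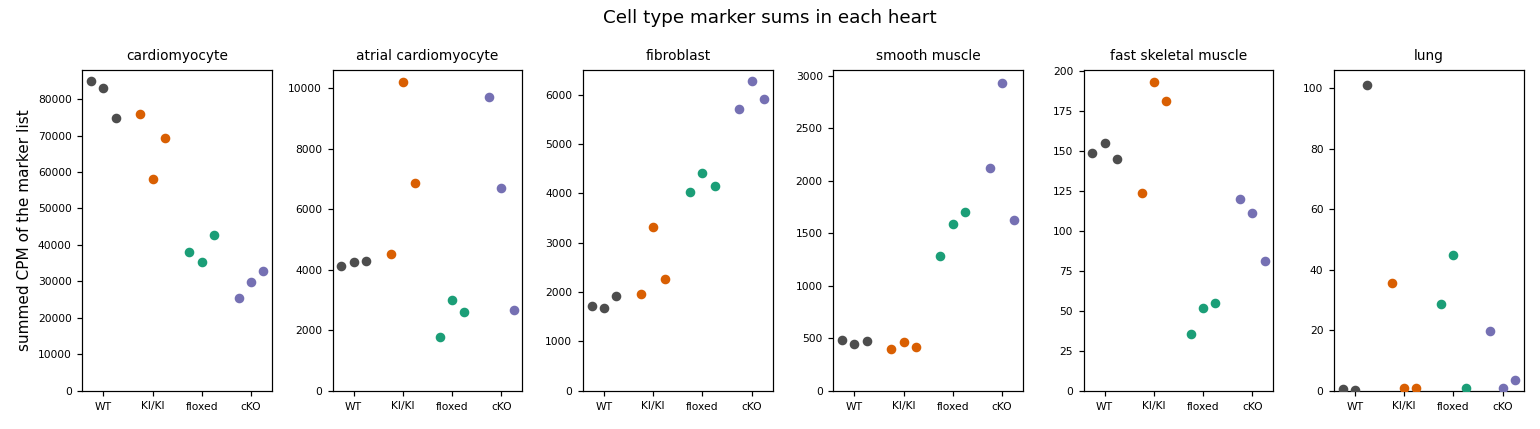
Summed CPM of the marker genes of 6 cell types or tissues in each heart (points, replicates in order), by group, each on its own axis from 0. Cardiomyocyte sums are lower and fibroblast sums higher in all 3 cKO than in all 3 floxed hearts. Lung markers appear in some but not all hearts of every group, floxed replicates 1 and 2 among them.

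Whether the 2 mutants differ in these genes was tested as the difference of the genotype effects, cKO minus floxed against KI/KI minus WT, over all 12 hearts. The models also differ in age, in the kind of allele and in the cells that carry it. In this contrast these cannot be told apart. EdgeR called 0 of the 10 genes, beside 2.43% of the 15729 genes tested. At an unadjusted p under 0.05 there were 3 of the 10, Tpm1, Tpm2 and Tpm3, all higher in the cKO effect, beside 20% of all genes. The largest of these was Tpm2, with a log2 difference of 0.80 ± 0.23 SE (edgeR adjusted p = 0.0854). DESeq2 gave 0.83 with an adjusted p of 0.0153 and called 1 of the 10, beside 9.11% of all genes, and limma-voom called 0. The adjusted p of Tpm2 ranged from 0.0153 to 0.198 over all alternatives. For Tnni1 and Tnni3 the differences were 0.04 ± 0.19 SE and -0.11 ± 0.22 SE, so the effects on the troponin I genes were not told apart. The comparison of floxed with WT hearts shares its samples with both genotype comparisons. Set side by side, Tpm2 had log2 fold changes of 1.33 at P1 against adult, 1.01 in cKO and 0.21 in KI/KI hearts. Tpm3 had 0.60, 0.64 and 0.26, and Tnni1 had 9.87, -0.38 and -0.41.

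The genes whose levels ran most like these over the 12 hearts are given as a description, since the hearts fall into 2 ages that set most of the likeness. Among 15741 genes, Dlk1, Atxn7l3b and Nrk had the highest Pearson r of log2 CPM with Tnni1 (0.997 to 0.998). For Tnni3, Sod2 and Slc4a3 were among them (0.998 and 0.997). Tpm2 ran closest to Lrrc59, Coro1c and Stx12 (0.992 to 0.994), Tpm3 to Ckap4, Pycr1 and Anxa2 (0.990 to 0.994), and Tnni2 to Aldh1l2, Rprd2 and 3110002H16Rik (0.899 to 0.905). After the group means were taken out, Tnni3 ran closest to Mrpl55, Sod2 and Myl2, the ventricular myosin light chain (0.981 to 0.992). By the same measure Tpm2 ran closest to Tuba1a, Tmem121 and P4ha1 (0.931 to 0.953) and Tpm3 to Fam198b, Isg15 and Pycr1 (0.944 to 0.957). Tnni1 ran closest to 1300017J02Rik, Cthrc1 and Nrn1l (0.939 to 0.963), and Tnni2 to Pnpla8, Fxr1 and Cops2 (0.955 to 0.960). Sod2 was the gene near Tnni3 by both measures, and Pycr1 the one near Tpm3.

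Of the other thin filament genes, 11 of 22 tested were called in cKO hearts, beside 16.9% of all genes, 7 higher and 4 lower, with a median log2 fold change of 0.27. The 3 with the smallest p all rose. Csrp3, a Z-disc protein, was at 387, 408 and 447 CPM in floxed and 651, 826 and 746 CPM in cKO hearts (log2 fold change 0.84 ± 0.10 SE; edgeR adjusted p = 0.00684). The others were Tpm4, given above, and Myoz2, a Z-disc protein that binds calcineurin (0.64 ± 0.10 SE; edgeR adjusted p = 0.0101). In KI/KI hearts the next after Acta1 were Tmod4, which caps the pointed end of the filament, and Cfl2, which severs actin. Their log2 fold changes were -0.72 ± 0.24 SE and 0.19 ± 0.08 SE, with adjusted p of 0.255 and 0.307 in edgeR.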

How the data were processed

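RNA-Seq libraries from polyA RNA of whole hearts were sequenced by the authors. Per the labels and the study's methods, reads were trimmed with Trim Galore, aligned to mm10 with STAR 2.7.2b and counted per gene with HTSeq, and the authors deposited the raw read counts, without normalization. These counts were tested with edgeR 4.0.16 under R 4.3.3 (TMM, filterByExpr, robust quasi-likelihood test, Benjamini-Hochberg adjustment over all genes tested), each comparison on its own 6 hearts and the difference of effects on all 12. DESeq2 1.42.0 and limma-voom (limma 3.58.1) were alternatives. Standard errors are the log2 fold change divided by the square root of F. Lengths are unions of the exons of protein-coding transcripts in GENCODE M21, untranslated bases included. Isoform ratios were compared by exact two-sided permutation tests. Tests were tried on simulated counts with 200 genes changed 2-fold or more, so smaller changes were not tried. For cKO against floxed, edgeR recovered 152 with 18 false calls among 15317 genes, and DESeq2 recovered 166 with 65. For KI/KI against WT, edgeR recovered 163 with 10 false calls and DESeq2 171 with 45. Each gene was simulated independently of the others, so a shift of many genes in a single heart was not part of the trial.

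The genes and the lists were chosen with earlier results of these data known. Named genes are the 10, Lemd2, the 3 with the smallest p per list and genotype comparison, and the 3 most alike in level, of which some are not reported here. Xist, Sftpc, Myh4, Tnnc2, Nppa, Casq1 and the other single genes given from the cell type marker lists were named after their values were seen. At these depths 3 counts correspond to under 0.1 CPM.

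Replicate numbers 1 to 3 occur in both WT and floxed hearts. Same-numbered hearts did not deviate together (r of -0.234, -0.287 and -0.536), so they share only a number.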

Additional observations from a re-analysis of the deposited data

How the results depend on the processing

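The 10 genes and the 3 comparisons of the Tnni1 to Tnni3 ratio were recomputed under the alternatives. Of the log2 fold changes, 158 of 160 in KI/KI hearts and 139 of 160 in cKO hearts kept their direction and their side of the threshold. In cKO hearts 20 lost and 1 gained a call. The number called was 1 with DESeq2 in place of 0 in KI/KI hearts, 1 in place of 0 for the difference of effects, and 2 in place of 5 in cKO hearts with a 2-fold threshold. Over all genes, edgeR called 0 and DESeq2 518 in KI/KI hearts, and 383 and 1325 for the difference.

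With library totals in place of TMM, an alternative added after seeing the data, the log2 fold change between the control groups was 0.11 for Tnnt2 and 0.15 for Tnnc1, and the difference of effects was -0.12 for Tnni1 and -0.01 for Tnnt1. The cause was not tested. The median of all genes shifted there by 0.40 between the control groups and by -0.15 for the difference.

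With each heart left out, the number called ranged from 1 to 5 in cKO hearts, fits that have fewer samples, from 6 to 9 between the control groups (9 without WT replicate 3), and from 0 to 1 for the difference (1 without floxed replicate 3). The log2 fold change ranged from -0.80 to 0.62 for Tnnt3 in KI/KI hearts and from -0.12 to 0.34 for Tnni2 between the control groups. For the difference it ranged from -0.09 to 0.24 for Tnni1, 0.00 to 0.73 for Tnni2, -0.27 to 0.04 for Tnni3, 0.00 to 0.25 for Tnnt1 and -0.19 to 0.08 for Tnnt2. The Tnni1 to Tnni3 difference ranged from -0.42 to 0.10 in KI/KI hearts.

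With the replicate block between floxed and WT hearts, 6 of the 10 genes were called in place of 7, as Tnnt2 was not (adjusted p = 0.115 in edgeR). WT and KI/KI hearts, and floxed and cKO hearts, share no replicate numbers, so no block could be fitted there.

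The adult counts of Tnni1 (25 to 44) and the counts of Tnni2 and Tnnt3 limit how small a change is detectable. Transcripts of 1 gene cannot be told apart in gene counts.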

Other observations

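Genes that act on troponin and tropomyosin, or on their splicing and transcription, were listed beside them. Of 20 cardiac and muscle transcription factors, 8 were called lower and 0 higher in cKO hearts (median of the list -0.38 on the log2 scale). At an adjusted p under 0.05, 7.57% of all genes were called lower. Mef2a, a MADS-box factor of muscle genes, was at 630, 663 and 642 CPM in floxed and 413, 427 and 432 CPM in cKO hearts (log2 fold change -0.61 ± 0.07 SE; edgeR adjusted p = 0.00634). Mef2d and Esrrg, an estrogen-related receptor of energy metabolism, both had a log2 fold change of -0.46 ± 0.07 SE, with adjusted p of 0.0106 and 0.00950. In KI/KI hearts the 3 with the smallest p were Thra, the thyroid hormone receptor α, Myocd, a cofactor of SRF, and Esrra. Their log2 fold changes were -0.33, -0.23 and -0.23, and edgeR's adjusted p was 0.181, 0.244 and 0.264. Thra had an adjusted p of 8.2e-04 in DESeq2.

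Among 20 splicing regulators of muscle, 1 was called higher and 3 lower in cKO hearts (median log2 fold change 0.03), a share near the 16.9% of all genes called. Rbfox1, a neuronal and muscle splicing factor, was at 36.4, 28.4 and 30.7 CPM in floxed and 8.78, 10.8 and 16.0 CPM in cKO hearts (log2 fold change -1.44 ± 0.21 SE; edgeR adjusted p = 0.00959). Ptbp1, known to repress muscle exons of tropomyosin, rose by 0.56 ± 0.10 SE (adjusted p = 0.0148), and Rbm24, a splicing factor of the heart, fell by 0.58 ± 0.12 SE (adjusted p = 0.0249). In KI/KI hearts Rbm20, a regulator of titin splicing, had a log2 fold change of -0.27 (edgeR adjusted p = 0.245), and Srsf7 and Rbpms2 had -0.14 and -0.13. Exon use was not measured in these gene counts.

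Of 20 kinases, phosphatases and their subunits that act on troponin, 1 was called higher and 2 lower in cKO hearts (median -0.04), again near the 16.9% of all genes. These were Prkcd, a protein kinase C (log2 fold change 0.69 ± 0.13 SE; edgeR adjusted p = 0.0182), Ppp2r5a, a subunit of protein phosphatase 2A (-0.37 ± 0.07 SE; edgeR adjusted p = 0.0168), and Prkd1, protein kinase D1 (-0.67 ± 0.15 SE; edgeR adjusted p = 0.0286). In KI/KI hearts Prkar1a, a regulatory subunit of protein kinase A, had a log2 fold change of 0.50 ± 0.13 SE (edgeR adjusted p = 0.226; DESeq2 adjusted p = 0.00986). Ppp1r1a and Camk2g had -0.96 and -0.19.

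Of 15 myosin and other sarcomere genes, 3 were called lower and 0 higher in cKO hearts (median -0.16), beside 7.57% and 9.32% of all genes. They were Mylk3, the cardiac myosin light chain kinase (-0.45 ± 0.08 SE), Ttn, titin (-0.45 ± 0.10 SE), and Myh7b (-1.02 ± 0.25 SE), with adjusted p of 0.0178, 0.0271 and 0.0344 in edgeR. In KI/KI hearts Myh7b and Myom2 had log2 fold changes of -0.31 and 0.36, with adjusted p of 0.285 and 0.307 in edgeR.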
